A study of Mus musculus with 4 samples.

Results

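T cell receptor alpha and beta segment rows were taken from the deposited count tables by their symbols. A row was a member when its symbol began with Trav, Traj or Trac, or with Trbv, Trbd, Trbj or Trbc, followed by a digit, a hyphen or the end of the symbol. This rule uses no measured value and found 224 rows of the 31748 in the tables. They comprised 121 alpha variable (Trav) rows, 60 alpha joining (Traj) rows, 26 beta variable (Trbv) rows, 2 beta diversity (Trbd) rows, 14 beta joining (Trbj) rows and the beta constant row Trbc2. The constant genes Trac and Trbc1 and the variable segments Trbv26 and Trav14-2 had no row under these symbols and were not analysed here.

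The receptor that most T cells use to recognise antigen is a pair of alpha and beta chains. Each developing T cell joins 1 V and 1 J segment for the alpha chain, and 1 V, 1 D and 1 J segment for the beta chain, by cutting and rejoining its DNA, and the joined exon is then spliced to a constant exon. Among V segments, a mature clone therefore transcribes mainly those it has joined, and the V counts of a cell mixture describe which V segments its T cells carry. Whether counts of J and D rows came from joined segments was not tested. TEa mice carry rearranged receptor transgenes whose alpha chain belongs to the V alpha 2 (Trav14) family and whose beta chain uses V beta 6 (Trbv19). The receptor sees a peptide from I-E alpha bound to the class II molecule I-A.

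The study compared KO with WT cells, labelled TEaMthfd2 KO and TEaWT, with 2 libraries each. Mthfd2 encodes an enzyme that passes on folate-bound carbon units inside mitochondria. Per the labels, both genotypes carried TEa, the animals were 8-week-old, and T cells taken from spleen by positive magnetic selection were cultured for 3 days with mitomycin-treated antigen-presenting cells from spleens of F1 (BALB/c x C57BL/6) mice. Spleen also holds T cells, and the labels do not say which spleen cells the sort of the antigen-presenting cells kept. How Mthfd2 was deleted, and whether in T cells alone, is not given in the sources used here. Nothing in the labels tells whether replicate libraries stem from different animals or cultures. P-values therefore measure only how far these 4 libraries spread, and that spread may be technical.

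Libraries held between 14191401 and 15955863 counts. Mthfd2, the targeted gene, was at 222 and 251 CPM (counts scaled to TMM-adjusted library totals) in the KO libraries, against 280 and 280 CPM in the WT libraries. Its log2 fold change, KO over WT, was -0.24 ± 0.14 (SE, n = 2 each; edgeR quasi-likelihood test, adjusted p = 0.324), so the difference missed the threshold. Which exons were deleted is not given in the sources used here, so this row does not check the KO label. The labelled cell type was CD4+, yet Cd8a stood at 3.16 and 3.20 times the level of Cd4 in the KO libraries, and at 4.00 and 3.10 times in the WT libraries. The labels KO and WT below are those of the libraries.

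The ends of the 6 Trbv rows with the highest mean share of Trbv counts are shown because they carry most of the comparison of V use, with Trbv19 among them as the TEa segment. All are on the plus strand of GRCm38 (mm10), from GENCODE M21 transcripts. Capitals run from the first in-frame cysteine codon of the last 30 bases to the end of the exon. That stretch opens the third complementarity-determining region, the loop that contacts peptide.
Trbv1 (chr6:40891841-40891885): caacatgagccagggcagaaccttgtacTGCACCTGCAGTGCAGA
Trbv13-2 (chr6:41121788-41121832): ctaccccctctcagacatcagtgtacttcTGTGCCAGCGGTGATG
Trbv3 (chr6:41048784-41048828): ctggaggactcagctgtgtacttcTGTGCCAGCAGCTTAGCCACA
Trbv12-2 (chr6:41119320-41119364): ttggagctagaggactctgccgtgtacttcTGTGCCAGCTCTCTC
Trbv16 (chr6:41152186-41152230): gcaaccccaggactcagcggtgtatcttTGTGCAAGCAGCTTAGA
Trbv19 (chr6:41179004-41179048): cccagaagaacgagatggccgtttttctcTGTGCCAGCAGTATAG

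The Trav14 family is shown because some of its rows are copies, which limits what their counts can say. Trav14d-1, Trav14d-2, Trav14n-1 and Trav14n-2 have no 50-base stretch that is found in no other receptor gene. In the other rows analysed, between 43.3% (Trav14-3) and 95.1% (Trav14-1) of such stretches are their own, although the ends shown are alike. The mouse alpha locus holds duplicated blocks, and rows named with a d or an n are copies of the rows without a suffix. The last 45 bases of Trav14d-1 and Trav14d-2 are the same letters as those of Trav14n-1.
Trav14-1 (chr14:53554514-53554558): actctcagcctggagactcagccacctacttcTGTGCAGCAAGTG
Trav14-3 (chr14:53763650-53763694): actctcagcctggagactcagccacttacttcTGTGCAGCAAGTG
Trav14n-1 (chr14:53167134-53167178): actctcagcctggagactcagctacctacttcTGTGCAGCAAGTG

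The diversity segments are printed whole, and joining segments are shown for the rows discussed with them. In the joining segments, capitals mark the phenylalanine-glycine-any-glycine motif that most joining segments encode, searched on the sense strand, which 54 of the 74 J rows held (73.0%). Where none is in capitals the letters searched were not found in the row.
Trbd1 (chr6:41533201-41533212): gggacagggggc
Trbd2 (chr6:41542163-41542176): gggactgggggggc
Trbj1-5 (chr6:41535084-41535133): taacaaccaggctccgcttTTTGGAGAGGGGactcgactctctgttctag
Trbj2-7 (chr6:41543810-41543856): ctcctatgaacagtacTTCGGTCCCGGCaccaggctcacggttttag
Trbj2-6 (chr6:41543598-41543645): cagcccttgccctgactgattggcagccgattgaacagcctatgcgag
Traj18 (chr14:54200777-54200842): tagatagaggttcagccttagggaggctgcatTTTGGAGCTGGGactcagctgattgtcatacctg

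All 6 classes of receptor segment had higher summed levels in both KO libraries than in both WT libraries, and the difference was larger for Trbv, Trbj and Trbc2 than for Trav, Traj and Trbd. The summed Trbv level was 272 and 241 CPM in the KO libraries, against 138 and 148 CPM in the WT libraries, a mean of 256 ± 21.6 against 143 ± 7.20 CPM (SD, n = 2 each) and a 1.79-fold higher level in KO. The summed Trav level was 101 and 107 CPM in the KO libraries, against 76.6 and 84.6 CPM in the WT libraries, a mean of 104 ± 4.38 against 80.6 ± 5.59 CPM and a 1.29-fold higher level in KO. For each class the groups did not overlap, and the exact two-sided permutation test gave p = 0.333, the smallest that 2 against 2 libraries allow.

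The Trbd rows summed to 7.70 and 7.52 CPM in the KO libraries, against 6.22 and 5.40 CPM in the WT libraries, 1.31-fold higher in KO. Trbc2 is the beta constant gene of the second D-J-C cluster, but only 56.0% of its 50-base stretches are found in no other receptor gene, and Trbc1 was not analysed here, so its counts may hold reads of both. Trbc2 had 532 and 562 CPM in the KO libraries, against 373 and 359 CPM in the WT libraries. The Trbj rows summed to 37.2 and 33.6 CPM in the KO libraries, against 19.2 and 20.3 CPM in the WT libraries, again 1.79-fold higher in KO. The Traj rows summed to 14.4 and 13.5 CPM in the KO libraries, against 11.05 and 11.2 CPM in the WT libraries, 1.25-fold higher in KO. Trbv, Trbj and Trbc2 therefore lay further apart between the groups than Trav and Traj. In bulk RNA, fewer cells of a type and less RNA per cell cannot be told apart.

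The Cd3 chains, which carry the receptor to the surface and signal for it, were higher too. Cd3d, Cd3e, Cd3g and Cd247 summed to 1037 and 1017 CPM in the KO libraries, against 569 and 639 CPM in the WT libraries, 1.70-fold higher in KO. Cd3g rose by a log2 fold change of 1.26 ± 0.17 (SE, n = 2 each; edgeR quasi-likelihood test, adjusted p = 0.0303), Cd3d by 0.86 ± 0.14 (adjusted p = 0.0397) and Cd3e by 0.81 ± 0.15 (adjusted p = 0.0413), while Cd247 had 0.30 ± 0.15 (adjusted p = 0.265). Of a list of 14 receptor complex and co-receptor genes, Cd3g, Cd3d and Cd3e were called higher and none lower, beside 2.39% and 1.56% of all genes. The list had a median log2 fold change of 0.32 beside -0.0026 over all 12752 genes tested.

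Set against the summed Cd3 counts instead of the library total, the log2 difference of the summed level shrank to 0.07 for Trbv and 0.07 for Trbj. On that scale KO was below WT for Trbc2 (-0.19), Trbd (-0.39), Trav (-0.40) and Traj (-0.45). The direction for these 4 classes therefore depends on what the counts are divided by. The ratio of Trbv to Trav counts needs no library total, and it was 2.70 and 2.25 in the KO libraries, against 1.80 and 1.75 in the WT libraries, without overlap.

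**Figure D1:**
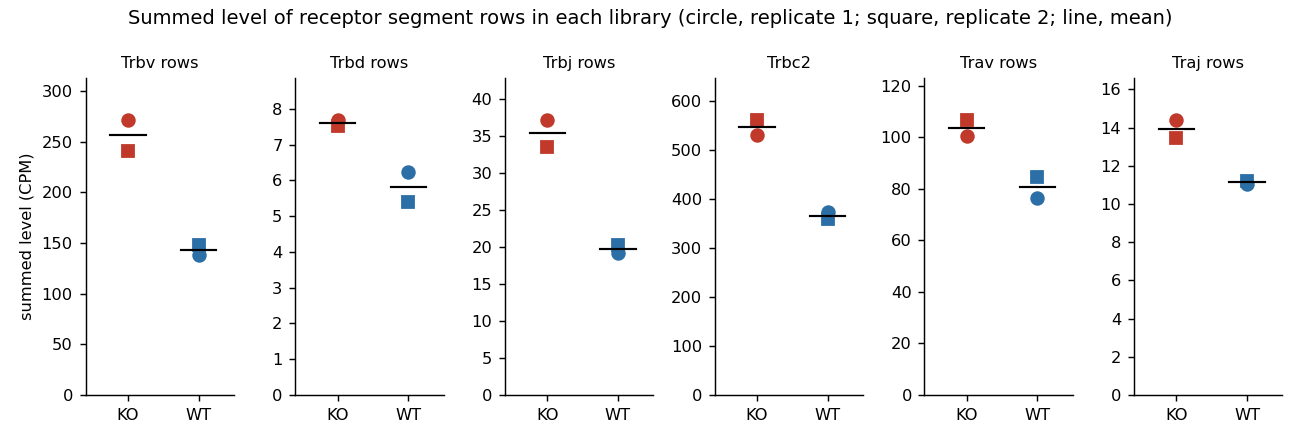
Summed level of each class of receptor segment row in CPM, with 1 panel per class and 1 point per library, KO left of WT; circles are replicate 1, squares replicate 2, and lines the group means. Both KO points lie above both WT points in each panel, and the gap is widest in relative terms for Trbv and Trbj, at 1.79-fold each.

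Markers of B cells were called lower in KO. No gene of the myeloid and dendritic or NK cell lists was called, though some of them lay lower in KO too. Of 12 B cell genes 7 fell in KO and none rose (edgeR quasi-likelihood test), beside 1.56% of all genes called lower and 2.39% higher. Their median log2 fold change was -1.35, and they summed to 1120 and 1132 CPM in the KO libraries, against 2810 and 1754 CPM in the WT libraries. The myeloid and dendritic list, with 8 kept genes, summed to 18.0 and 12.6 CPM in the KO libraries, against 34.3 and 19.5 CPM in the WT libraries. No gene of that list was called, and 6 had negative and 2 positive log2 fold changes. At an unadjusted p under 0.05 by edgeR, 2 were lower and 0 higher, beside 12.7% and 12.8% of all genes. Lyz2 had 4 and 4 counts in the KO libraries, against 77 and 23 in the WT libraries (log2 fold change -3.42, edgeR adjusted p = 0.0605). It reached the filter's minimum in the WT libraries only. The NK cell list had 4 kept genes, none called, 2 positive and 2 negative, and a median log2 fold change of 0.19. Its gene Ncr1 had 11 and 4 counts in the KO libraries, against 45 and 40 in the WT libraries (log2 fold change -2.34, edgeR adjusted p = 0.0896). Cd8a had a log2 fold change of 0.21 (adjusted p = 0.422) and Cd4 one of 0.35 (adjusted p = 0.209). The part of cell mixture in the receptor levels was not tested.

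A list of genes chosen to mark gamma delta cells, the other T cell lineage, had a median near 0. Of 16 matched gamma delta genes, 9 passed the filter, 0 were called in either direction by edgeR, 0 had an unadjusted p under 0.05, and their median log2 fold change was -0.0039. They summed to 70.3 and 31.8 CPM in the KO libraries, against 76.3 and 66.8 CPM in the WT libraries, so KO replicate 2 stood below the other 3 libraries. Of these sums Blk alone held 29.3 and 14.3 CPM in the KO libraries, against 50.6 and 29.6 CPM in the WT libraries. Blk was the largest single part of the sum in each library, and the sums do not measure the level of gamma delta cells.

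Of the 224 rows, 186 had at least 1 count and 89 passed the filter on low counts. No row was called by edgeR's quasi-likelihood test in either direction, beside 2.39% of all 12752 genes called higher and 1.56% called lower. At an unadjusted p under 0.05, 19 rows were higher and 0 lower, beside 12.8% and 12.7% of all genes. The CPM of both KO libraries exceeded both WT libraries for 48 rows and lay below for 2, beside 29.8% and 30.1% of all genes. The median log2 fold change of the 89 rows was 0.58, and 77 were positive. DESeq2 called 7 rows higher, beside 6.74% of all genes called higher, and limma-voom called 0, beside 2.95%; neither called a row lower, beside 6.14% of all genes for DESeq2 and 1.7% for limma-voom. These counts cover the rows that passed the filter, 5 of which reached its minimum in the KO libraries only and 1 in the WT libraries only, and are a description.

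The 18 kept Trbv rows all had positive log2 fold changes, between 0.34 and 1.28 with a median of 0.84. By edgeR, 14 of them had an unadjusted p under 0.05, beside 12.8% of all genes higher at that level. Trbv12-2, a V beta 5 segment, had 26.4 and 22.1 CPM in the KO libraries, against 7.69 and 12.3 CPM in the WT libraries, a log2 fold change of 1.28 ± 0.29 (SE, n = 2 each; edgeR adjusted p = 0.0568). Trbv3 had 23.2 and 22.5 CPM in the KO libraries, against 12.9 and 10.2 CPM in the WT libraries, a log2 fold change of 0.98 ± 0.23 (edgeR adjusted p = 0.0612). In both rows the libraries of the groups did not overlap.

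Trbv13-2, a V beta 8 segment, had 25.5 and 22.4 CPM in the KO libraries, against 10.1 and 14.3 CPM in the WT libraries, a log2 fold change of 0.97 ± 0.25 (edgeR adjusted p = 0.0773). Trbv12-1, the other V beta 5 segment, had 18.4 and 19.6 CPM in the KO libraries, against 8.12 and 11.1 CPM in the WT libraries, with 0.98 ± 0.26 (edgeR adjusted p = 0.0788). Trbc2 had a log2 fold change of 0.58 ± 0.14 (edgeR adjusted p = 0.0610). With Trbv13-1 and Trbv31, these 5 rows were the 7 that DESeq2 called higher, at adjusted p between 0.00290 and 0.0255; Trbv13-1 and Trbv31 are named because DESeq2 called them, after their values were seen.

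Without WT replicate 2, edgeR called 6 rows higher, namely Trbv12-2, Trbv13-2, Trbv12-1, Trbv2, Trbv13-1 and Trbv3, beside 10.7% of all genes tested there, which is above the share among the 101 receptor rows tested. With no filter on low counts it called 7 of 186 rows higher, beside 4.02% of all genes.

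Trbv19, the TEa beta segment, had 17.3 and 17.8 CPM in the KO libraries, against 10.2 and 12.4 CPM in the WT libraries. Its log2 fold change of 0.63 ± 0.24 (edgeR adjusted p = 0.158) lay below the median of the Trbv rows. Trbv1, a V beta 2 segment and the Trbv row with the most counts, had 30.0 and 22.8 CPM in the KO libraries, against 16.5 and 18.6 CPM in the WT libraries, with a log2 fold change of 0.59 ± 0.22 (edgeR adjusted p = 0.164). Trbv16, a V beta 11 segment, had 21.1 and 15.97 CPM in the KO libraries, against 13.5 and 9.25 CPM in the WT libraries, with 0.70 ± 0.29 (edgeR adjusted p = 0.191). None of these differences passed the threshold, though the libraries of the groups did not overlap in these 3 rows.

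Trbv17 and Trbv29 lay lowest among the named Trbv rows, with log2 fold changes of 0.34 (edgeR adjusted p = 0.592) and 0.39 (edgeR adjusted p = 0.455). Trbv29, a V beta 7 segment, had 12.8 and 9.31 CPM in the KO libraries, against 9.46 and 7.43 CPM in the WT libraries, and its groups overlapped.

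**Figure D2:**
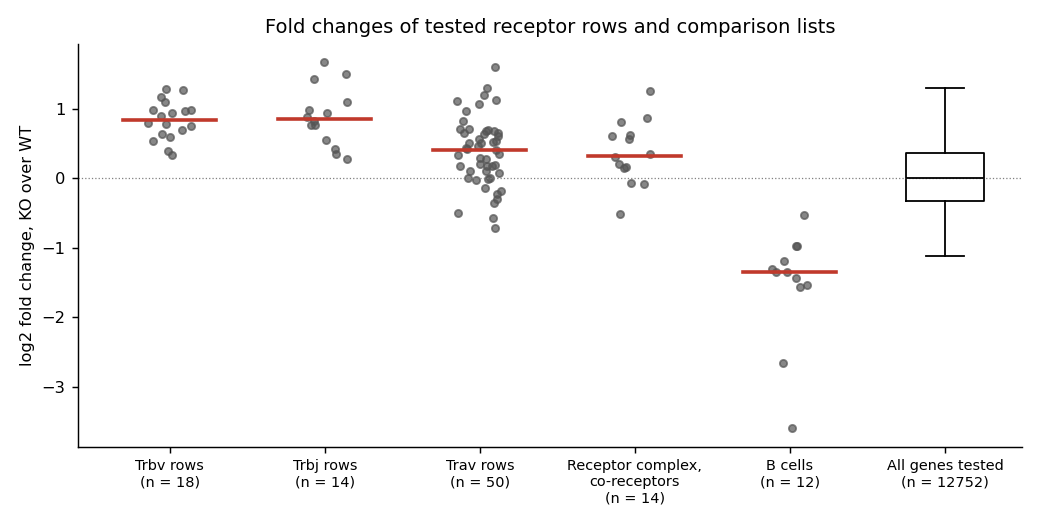
Log2 fold change, KO over WT, of each tested row from the edgeR fit of all genes (1 point per gene, red line at the median), for 18 Trbv, 14 Trbj and 50 Trav rows, 14 receptor complex and co-receptor genes and 12 B cell genes, with a box plot of all 12752 genes (box, quartiles). The Trbv and Trbj points all lie above 0, the Trav points range from -0.72 to 1.60 and the B cell points all lie below 0.

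V beta use was spread over many segments in each library, and the TEa beta segment was not dominant. Trbv19 held 6.37% of Trbv counts in KO replicate 1 (exact 95% interval 5.62 to 7.19%) and 7.37% in KO replicate 2 (6.51 to 8.31%), against 7.39% in WT replicate 1 (6.35 to 8.55%) and 8.39% in WT replicate 2 (7.27 to 9.63%). These intervals cover counting error only. Its KO shares lay below both WT shares, by 1.02 percentage points in the means, but divided by Trbc2 counts instead the difference was 0.11 percentage points, so the direction turned. The exact permutation test cannot go below p = 0.333 with 2 against 2 libraries.

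Trbv1 held the largest share in each library, with 11.03% and 9.45% in the KO libraries, against 11.95% and 12.5% in the WT libraries. Trbv12-2 held 9.73% and 9.19% in the KO libraries, against 5.58% and 8.30% in the WT libraries, with the KO shares 2.52 percentage points higher in the means. Trbv29 held 4.71% and 3.86% in the KO libraries, against 6.86% and 5.02% in the WT libraries. Trbv17, a V beta 9 segment, held 1.77% and 2.50% in the KO libraries, against 3.41% and 2.60% in the WT libraries. Trbv12-2 lay higher in KO and Trbv1, Trbv29 and Trbv17 lower, without overlap, but for each of these 4 rows the exact 95% interval of at least 1 KO library overlapped that of a WT library. Divided by Trbc2 counts instead of Trbv counts, KO minus WT was 0.048 percentage points for Trbv1, so its direction turned, and it was -0.18 for Trbv17 and -0.27 for Trbv29. Trbv12-2 stayed higher in KO on that scale, by 1.71 percentage points.

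Of the 16 Trbv rows with a mean of at least 50 counts, 6 had KO and WT shares that did not overlap, 2 higher and 4 lower in KO. Over all genes tested, the CPM lay higher without overlap for 29.8% and lower for 30.1%. That measure is unlike a share within a locus, so the 6 rows are a description and no result about Trbv use. Besides the rows above these were Trbv13-1, at 7.08% and 7.25% in the KO libraries and 6.99% and 6.89% in the WT libraries. Trbv13-2 held 9.39% and 9.30% in the KO libraries, against 7.35% and 9.67% in the WT libraries. Trbv3 held 8.53% and 9.33% in the KO libraries, against 9.38% and 6.89% in the WT libraries. Trbv16 held 7.75% and 6.63% in the KO libraries, against 9.83% and 6.25% in the WT libraries. In these last 3 rows the groups overlapped, with WT replicates 1 and 2 on either side of the KO libraries in each.

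Products of Trbv12-1, Trbv12-2, Trbv15 and Trbv16 (V beta 5, 12 and 11) see superantigens of mouse mammary tumour virus with I-E, and are kept in C57BL/6 mice, which lack I-E. These 4 rows together held 28.2% and 28.0% of Trbv counts in the KO libraries, against 24.7% and 26.96% in the WT libraries. Without Trbv12-2, the shares of the other 3 rows each overlapped between the groups, with Trbv15 at 3.95% and 4.07% in the KO libraries and 3.36% and 4.88% in the WT libraries. The Trbv13 segments (V beta 8) together held 20.0% and 20.4% in the KO libraries, against 18.6% and 20.0% in the WT libraries.

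**Figure D3:**
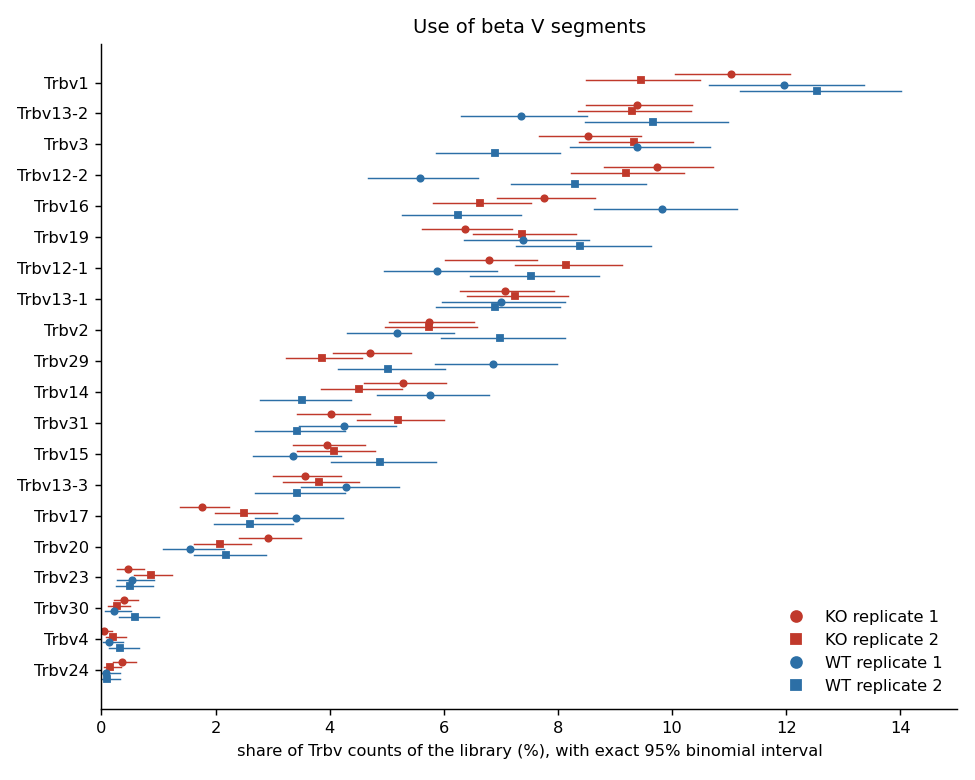
Share of Trbv counts of the library held by the 20 Trbv rows with most counts, in percent, with exact 95% binomial intervals; KO points (red) stand above WT points (blue) within each row, circles are replicate 1 and squares replicate 2. Trbv1 holds the largest share in each library, between 9.45% and 12.5%, and Trbv19 holds between 6.37% and 8.39%.

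The diversity of Trbv use differed little in size between the groups, though the KO values lay above the WT values. The effective number of Trbv rows, the exponential of Shannon entropy, was 15.4 and 15.6 in the KO libraries, against 15.2 and 15.3 in the WT libraries. The Simpson effective number was 14.004 and 14.2 in the KO libraries, against 13.9 and 13.8 in the WT libraries. Both measures were higher in KO without overlap, by 0.23 rows in the mean effective number, and with the rows summed to V families the difference was -0.18. In each library 13 rows made up 90% of Trbv counts. The number of rows with a count was 21 and 21 in the KO libraries, against 20 and 20 in the WT libraries, and brought to 2192 Trbv counts, 20.7 and 20.9 in the KO libraries, against 20.0 and 20.0 in the WT libraries. The rows seen in only 1 library were Trbv5, with 3 counts in KO replicate 1, and Trbv12-3, with 2 counts in KO replicate 2, while Trbv4 had 2 and 7 counts in the KO libraries and 3 and 7 in the WT libraries.

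The Trbv profiles of the WT libraries lay as far from each other as those of KO and WT libraries did. Total variation distance, 0.5 times the summed absolute difference in shares, was 6.20% between the KO libraries, 12.8% between the WT libraries and 8.34 to 11.4% between a KO and a WT library. The chi-square per degree of freedom of Trbv counts was 2.50 between the KO libraries, 5.36 between the WT libraries and 3.01 to 5.92 across groups, so the cross-group pairs were not clearly further apart than the WT pair on either measure. With 2.50 or more, every pair differed by more than counting error.

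On the alpha side the rows were more numerous and shallower, with between 1252 and 1492 Trav counts in a library. The 6 Trav rows with the highest mean share together held 24.8% and 21.6% of Trav counts in the KO libraries, against 22.7% and 27.5% in the WT libraries. Trav16n held 5.47% and 2.68% in the KO libraries, against 5.18% and 5.27% in the WT libraries. Trav12-2 held 3.51% and 4.89% in the KO libraries, against 4.70% and 5.35% in the WT libraries. The KO libraries differed more from each other in Trav16n than from the WT libraries. The other 4 rows, Trav9-2, Trav3-3, Trav13-1 and Trav9-4, held between 2.31% and 5.35% in any library. No Trav row with a mean of at least 50 counts had shares that did not overlap between the groups, and only 4 rows reached that mean.

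The 50 kept Trav rows had a median log2 fold change of 0.41, with 39 positive and 11 negative, and none was called by edgeR's quasi-likelihood test. Trav8n-2, named after its values were seen, had 20 and 24 counts in the KO libraries, against 9 and 7 in the WT libraries. It reached the minimum count in the KO libraries only, so its unadjusted p under 0.05 is no support for a difference. The 8 Trav14 rows analysed, which do not include Trav14-2, together held 7.79% and 10.1% of Trav counts in the KO libraries, against 8.92% and 11.4% in the WT libraries, so these rows did not dominate and their groups overlapped. The TEa label therefore goes unmatched by a dominant beta segment or by a dominant analysed row of the alpha family.

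Trav14n-3 had 35 and 59 counts in the KO libraries, against 28 and 48 in the WT libraries. Trav14-3 had 15 and 21 counts in the KO libraries, against 22 and 43 in the WT libraries. Trav14d-3-dv8 had 22 and 31 counts in the KO libraries, against 16 and 11 in the WT libraries. These rows pointed in different directions. Counts were higher in KO for Trav14d-3-dv8 and lower in KO for Trav14-3 without overlap, as were their shares of Trav counts, but for Trav14-3 the CPM overlapped.

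Trav14-1 had 10 and 29 counts in the KO libraries, against 33 and 11 in the WT libraries. Trav14n-1 had 26 and 5 counts in the KO libraries, against 7 and 22 in the WT libraries. Replicates of a group differed here by more than the groups did. Trav14d-1, Trav14d-2 and Trav14n-2 had at most 8 counts in any library.

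Diversity of Trav use showed the same order. The effective number of Trav rows was 56.0 and 54.5 in the KO libraries, against 53.4 and 54.3 in the WT libraries, and the Simpson effective number was 44.0 and 43.9 in the KO libraries, against 43.0 and 40.9 in the WT libraries. The KO values lay above the WT values without overlap in both measures, but summed to V families the mean difference was 0.049. The rows with a count, brought to 1252 Trav counts, numbered 83.3 and 78.4 in the KO libraries, against 77.0 and 82 in the WT libraries. Total variation distance was 23.7% between the KO libraries, 26.4% between the WT libraries and 22.7 to 24.2% across groups, so Trav profiles differed as much within a group as between groups.

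What an alpha row counts is limited by copies. The exons of 39 Trav rows held no stretch of 50 bases that no other receptor gene has, and these rows held 377 of the 5425 Trav counts (6.95%), with 17 of them at 0 in every library. A further 32 rows had some stretches of their own but fewer than they shared, and held 1939 counts, between 33.3% and 40.5% of the Trav counts of a library. Among these were Trav16n and Trav9-4, with 42.7% and 44.2% of their stretches their own. Of the rows with no stretch of their own, 34 formed 17 pairs of identical exons, of which 6 had no counts in either row, 3 had counts in only one row, and 8 had counts in both. In the pair Trav14d-1 and Trav14n-1, whose exons are identical, the totals over the 4 libraries were 2 and 60 counts. How the submitters counted reads that map to several places is not given in the sources used here, so a count cannot be assigned between copies. The Trbv rows are little affected, because at least 98.8% of the 50-base stretches of each were its own.

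**Figure D4:**
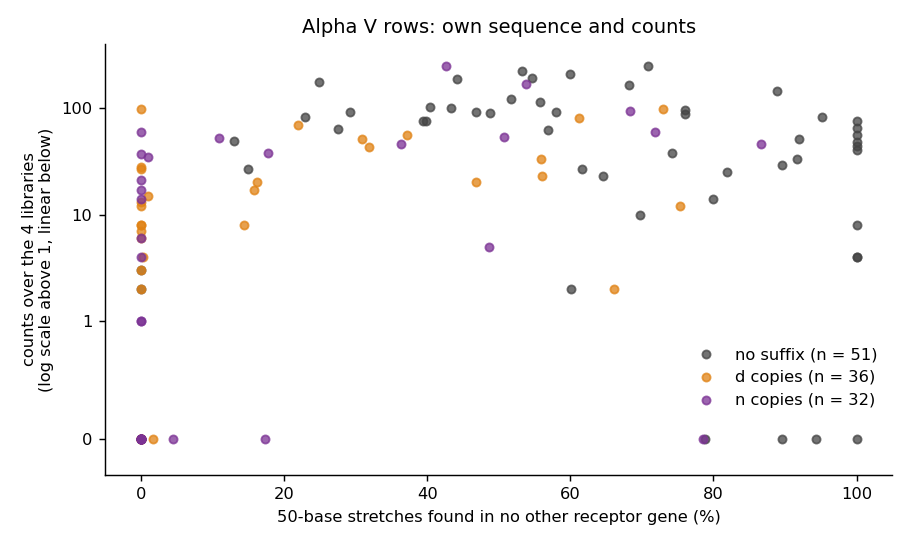
Total count of each Trav row over the 4 libraries, on an axis that is logarithmic above 1 and linear below, against the percent of its 50-base stretches found in no other receptor gene, for the 119 Trav rows with a sequence, coloured by copy suffix. The 39 rows with no stretch of their own lie at 0%, and 17 of them have no counts.

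Trav11 with Traj18 marks invariant NKT cells, and Trav1 with Traj33 marks MAIT cells. Trav11 had 2 and 0 counts in the KO libraries, against 0 and 0 in the WT libraries. Trav11d and Trav11n had 0 counts in every library. No 50-base stretch of Trav11 or Trav11d is their own, so these low counts set no limit on transcripts of that family. Trav1 had 23 and 10 counts in the KO libraries, against 17 and 6 in the WT libraries. The groups overlapped in Trav1.

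Traj18 had 3 and 3 counts in the KO libraries, against 9 and 8 in the WT libraries, below the filter, and Traj33 had 7 and 1 counts in the KO libraries, against 1 and 7 in the WT libraries. Traj18 did not overlap between the groups and Traj33 did, at counts too low for a test.

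Joining segments sit 3' of the V segments, and the Traj rows run over about 65 kb upstream of Trac. The 19 rows nearest to Trac, Traj1 to Traj20, at 1.68 to 21.02 kb, held 62.3% and 60.6% of Traj counts in the KO libraries, against 64.1% and 67.5% in the WT libraries. Traj21 to Traj40 held 29.9% and 35.6% in the KO libraries, against 28.2% and 27.1% in the WT libraries. Traj41 to Traj61, at 44.2 to 65.4 kb, held 7.84% and 3.72% in the KO libraries, against 7.73% and 5.42% in the WT libraries. Most counts lay near Trac in all 4 libraries, and the KO shares of the middle rows lay above the WT shares without overlap, though within counting error (exact 95% intervals of 23.7 to 36.7% and 28.8 to 42.9% in the KO libraries, against 21.8 to 35.3% and 20.5 to 34.5% in the WT libraries).

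The row with most Traj counts was Traj4, with 13 and 16 counts in the KO libraries, against 11 and 2 in the WT libraries, and only 4 Traj rows passed the filter. Traj11 had 13 and 3 counts in the KO libraries, against 8 and 17 in the WT libraries. Traj1, annotated as a pseudogene, had 8 and 11 counts in the KO libraries, against 11 and 10 in the WT libraries. Only the sums are deep enough to compare.

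**Figure D5:**
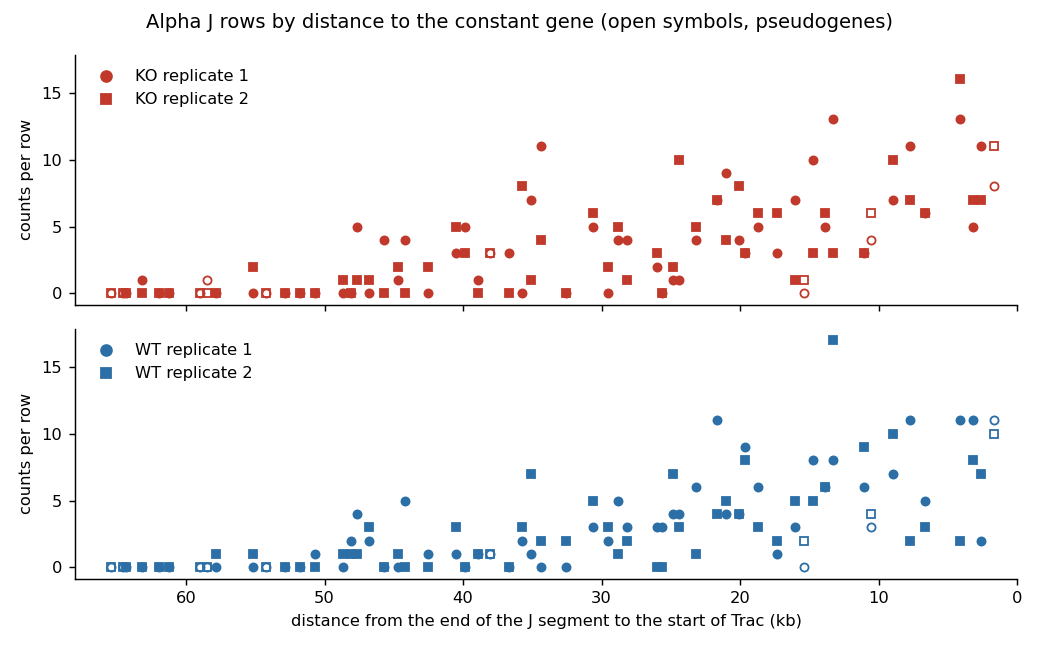
Counts of each Traj row against its distance from the start of Trac in kb, in red for KO at the top and blue for WT at the bottom, with circles for replicate 1, squares for replicate 2 and open symbols for pseudogenes. Most counts lie within 21.02 kb of Trac in both panels, where between 60.6% and 67.5% of Traj counts fall.

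The Trbj rows are in 2 clusters, each 3' of its own D segment. The Trbj1 rows held 44.6% and 43.9% of Trbj counts in the KO libraries, against 45.4% and 42.9% in the WT libraries. These shares overlapped between the groups. All 14 Trbj rows had positive log2 fold changes, with a median of 0.85. Of them, 3 had an unadjusted p under 0.05 by edgeR, beside 12.8% of all genes higher at that level. Trbj1-7, Trbj2-4 and Trbj2-5 reached the filter's minimum in the KO libraries only, so their sign is no support for a difference. Trbj1-5 had 49 and 57 counts in the KO libraries, against 21 and 16 in the WT libraries, a log2 fold change of 1.67 ± 0.47 (edgeR adjusted p = 0.0902). It had the largest value among the kept receptor rows.

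Trbj2-7 had 78 and 74 counts in the KO libraries, against 44 and 47 in the WT libraries, a log2 fold change of 0.88 ± 0.37 (edgeR adjusted p = 0.194). Trbj2-3 had 41 and 48 counts in the KO libraries, against 24 and 13 in the WT libraries, with 1.42 ± 0.52 (edgeR adjusted p = 0.153). Trbj1-4 had 55 and 52 counts in the KO libraries, against 42 and 28 in the WT libraries, and Trbj1-3 had 31 and 30 in the KO libraries, against 25 and 28 in the WT libraries. None of these J rows passed the threshold.

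Trbj2-6 is annotated as a pseudogene and held 83 and 67 counts in the KO libraries, against 56 and 57 in the WT libraries. Its total over all libraries was the highest of any Trbj row, though Trbj2-7 had more counts in KO replicate 2. The motif searched was not found in Trbj2-6. The D rows are short, and Trbd1 had 61 and 37 counts in the KO libraries, against 48 and 41 in the WT libraries, and Trbd2 had 48 and 68 in the KO libraries, against 54 and 39 in the WT libraries. Counts of both D rows overlapped between the groups, and neither row passed the threshold. In CPM Trbd1 overlapped too, but Trbd2 did not, at 3.39 and 4.87 in the KO libraries, against 3.30 and 2.63 in the WT libraries.

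Rearrangement takes place in developing T cells and is switched off in mature ones. Rag1 and Rag2, which cut the DNA, had 0 counts in every library, and Ptcra, the pre-receptor alpha chain, had at most 2. Dntt, the terminal transferase that adds bases at V(D)J joints, had 36 and 29 counts in the KO libraries, against 0 and 0 in the WT libraries, at least 24.0-fold higher in KO when 3 counts are taken as the floor over the WT group, and it was called higher by edgeR's quasi-likelihood test (adjusted p = 0.0400). Dntt passed the filter through the KO libraries only, so that call is no support for a difference. Fits with either KO replicate left out cannot decide on Dntt, since a lone KO library then remains. Only 2 of the 6 genes of that list passed the filter and were tested. Zbtb16, Klrb1c and Mr1, which mark or serve invariant T cells, were not called in either direction.

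Levels per length rank the rows where counts alone cannot. In CPM per kb of exon, Trbc2 had 769 and 813 in the KO libraries, against 539 and 519 in the WT libraries. Trbv13-2 had 75.0 and 65.9 in the KO libraries, against 29.8 and 42.1 in the WT libraries, and Trbv12-2 had 68.6 and 57.5 in the KO libraries, against 20.0 and 31.9 in the WT libraries. Trbv19 had 30.6 and 31.4 in the KO libraries, against 18.0 and 22.0 in the WT libraries. On this scale of levels Trbv19 lay below Trbv13-2 in all 4 libraries.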

How the data were processed

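RNA-seq was measured in 4 libraries labelled as cultured TEa CD4+ T cells from spleen, 2 KO and 2 WT. The measured Cd8a and Trbv19 levels go against parts of that label. The Trav14 rows cannot decide on it, since Trav14-2 was not analysed here. The authors deposited 1 table of whole-number read counts per library for 31748 gene symbols. The submitters' processing notes name the mm10 build, featureCounts, Subread 2.0.1, DESeq2 1.30.1 and R 4.0.4. Not given in the sources used here are the annotation release, the aligner, whether strand was used and how multi-mapping reads were treated, so reads of near-identical copies or antisense partners could not be told apart. Ribosomal RNA was depleted from DNase-treated total RNA, per the labels' protocols.

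Counts were fitted over the whole table in R 4.3.3 with edgeR 4.0.16 (filterByExpr, minimum count 10, minimum total count 15, TMM, quasi-likelihood test, no covariate), which tested 12752 genes. P-values were adjusted by Benjamini-Hochberg over all of them with a threshold of 0.05. CPM is computed on TMM-adjusted totals. DESeq2 1.42.0, limma 3.58.1 (voom), other scalings and filters, the replicate block and leaving out each library were alternatives. The script was tested on simulated data. Shares carry exact Clopper-Pearson 95% intervals. Positions come from GENCODE M21 (GRCm38). The members and lists were chosen with earlier results of these data known. Named rows were the constant and D rows, the TEa segments and families, the 6 V rows with the highest share in each locus, rows called by edgeR, the largest non-overlapping share differences, the 3 J rows with most counts in each cluster and segments with textbook roles.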

Additional observations from a re-analysis of the deposited data

How the results depend on the processing

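The count of genes called moved with the settings, and no setting called a receptor row lower. Genes higher in KO numbered 737 with no filter on low counts, 860 by DESeq2 and 489 with the replicate block, and 0 to 1432 when single libraries were left out (0 without either KO replicate, 1432 without WT replicate 2). Genes lower in KO numbered 122 with upper quartile factors, 682 with no filter, 127 at a mean count of at least 50, 783 by DESeq2 and 402 with the replicate block, and 0 to 1127 without single libraries. Receptor rows higher numbered 7 with no filter, 7 by DESeq2, 2 with the replicate block (Trbc2 and Trbv12-2, adjusted p = 0.0491 and 0.0498) and 0 to 6 without single libraries. The replicate block called 489 genes higher over all genes tested, a larger share than 2 of the 89 receptor rows. Its 2 receptor calls are therefore a description and no result about these rows. With a library left out, the lone library of its group is assumed to vary like the others. The correlation of deviations of same-numbered libraries was 0.04 over the genes tested. This shows no pairing across all genes, but cannot exclude one that touches only some of them. Relative to the Cd3 counts the summed levels had log2 values of 0.074 (Trbv), 0.072 (Trbj), -0.39 (Trbd), -0.19 (Trbc2), -0.40 (Trav) and -0.45 (Traj). With library size only Trbc2 had 0.53, and without single libraries Trbd had 0.29 to 0.49. Summed to V families, KO minus WT in the effective number was 0.049 for Trav and -0.18 for Trbv, and the Trbv rows detected differed by 0.80 at the lowest total. Relative to Trbc2 counts, the share differences were 0.048 (Trbv1) and 0.11 (Trbv19), against lower shares in KO of all Trbv counts. Signs turned for rows that were not called. Traj1 had -0.0035 (upper quartile), -0.046 (library size only), -0.0053 (limma-voom), -0.0078 (replicate block) and -0.25 to 0.23 without single libraries. Trav14-1 had -0.013, -0.057, -0.039, -0.0089 and -0.96 to 0.90 in the same order. Trav16n had 0.0054 at a mean count of at least 50 and -0.55 to 0.39 without single libraries. Without single libraries, the log2 fold change ranged from -1.88 to 0.22 for Traj11, -0.01 to 1.52 for Trav1, -0.20 to 0.37 for Trav12-2, -1.38 to 1.35 for Trav14n-1, -0.22 to 0.50 for Trav9-2 and -0.10 to 0.60 for Trbd1. The causes were not tested. Shares relative to Trac could not be run, since Trac was not analysed here. Depth limits the Traj and most Trav rows.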
